A study of Mus musculus with 6 samples.

Results

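The authors listed 690 genes that differed between IL-22-treated and untreated mouse enteroids, of which 54 carry the Gene Ontology term "immune system process" in the authors' deposited table. The 40 described here are those 54 less 14 that were left out by name or by gene family. The 14 were Lcn2, C4b, Trim10, Nos2, Icam1, Mmp7, Il18, Il33, Cxcl1, Slc40a1, Anxa3, Irf1, Oasl2 and B4galt1. Whether each of them is a known target of IL-22 was not checked. Enteroids are organoids grown from small-intestinal crypts, here of C57BL/6J mice from the group without necrotizing enterocolitis. The IL-22 group comprised 2 wells of 1 mouse, differentiated for 4 days and then given recombinant mouse IL-22 for 24 hours, and the control group comprised 4 untreated wells of 2 mice. The labels state 2 ng/ml of IL-22 and the header of the table names 100 ng, so the dose is not settled. Age is likewise given in more than 1 way, as 6 weeks in the sample labels and as 8 weeks or 7 days in the protocol. The labels call the wells of a mouse technical replicates. Error bars of the IL-22 group thus describe the spread between wells of 1 mouse, while those of controls mix spread between wells and between 2 mice. The p-values combine both kinds of spread, and treated animals were not replicated. The treated mouse and 1 of the control mice carry the same number.

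IL-22 is made by lymphoid cells of the gut wall and acts on epithelial cells, whose receptor signals through JAK kinases and the transcription factor STAT3. Epithelial cells also make part of the immune machinery themselves: pattern-recognition receptors, complement proteins, cytokines that reach lymphocytes, and mucin glycans. The ontology term is broad and collects genes known from lymphocytes or macrophages together with genes that epithelial cells use for other purposes. The table cannot show which cells the RNA came from, because none of 7 epithelial markers and none of 28 markers of T, B, myeloid, mast, mesenchymal and endothelial cells was among the listed genes.

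Values are RPM, which scales the reads of each gene to a library of 1000000 reads, a unit inferred from the values. RPM is not divided by transcript length, so levels are set against each other only within a gene. Whole reads per library were recovered from the deposited mean, standard error (SEM) and mean read number. Recovered values are given for the deeper and the shallower IL-22 library (32466667 and 29876740 reads), then for the 4 control libraries by falling depth (36577356, 35247451, 27416003 and 22648812 reads). Which labelled well each library was is unknown. Both IL-22 values were recovered for 40 of 40 members and all 4 control values for 33. In a control library 3 reads amount to 0.0820 to 0.132 RPM.

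With IL-22, 27 of the 40 members were higher and 13 were lower than in controls. Among all 690 listed genes 38.7% were higher and 61.3% were lower, whereas 67.5% of the members were higher. The 14 genes left out were higher in 14 of 14 cases, so the share over all 54 genes with the term was 75.9%. The median member that was higher had a 3.33-fold difference, against 3.15-fold for all listed genes that were higher, and the corresponding medians among lower genes were 2.81-fold and 2.70-fold. Every listed gene had passed the authors' selection (at least 2-fold, and an adjusted p of at most 0.0239), so the number of members that passed carries no information, and only direction and size can be compared. In bulk RNA, fewer cells of a type and less RNA per cell cannot be told apart.

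**Figure D1:**
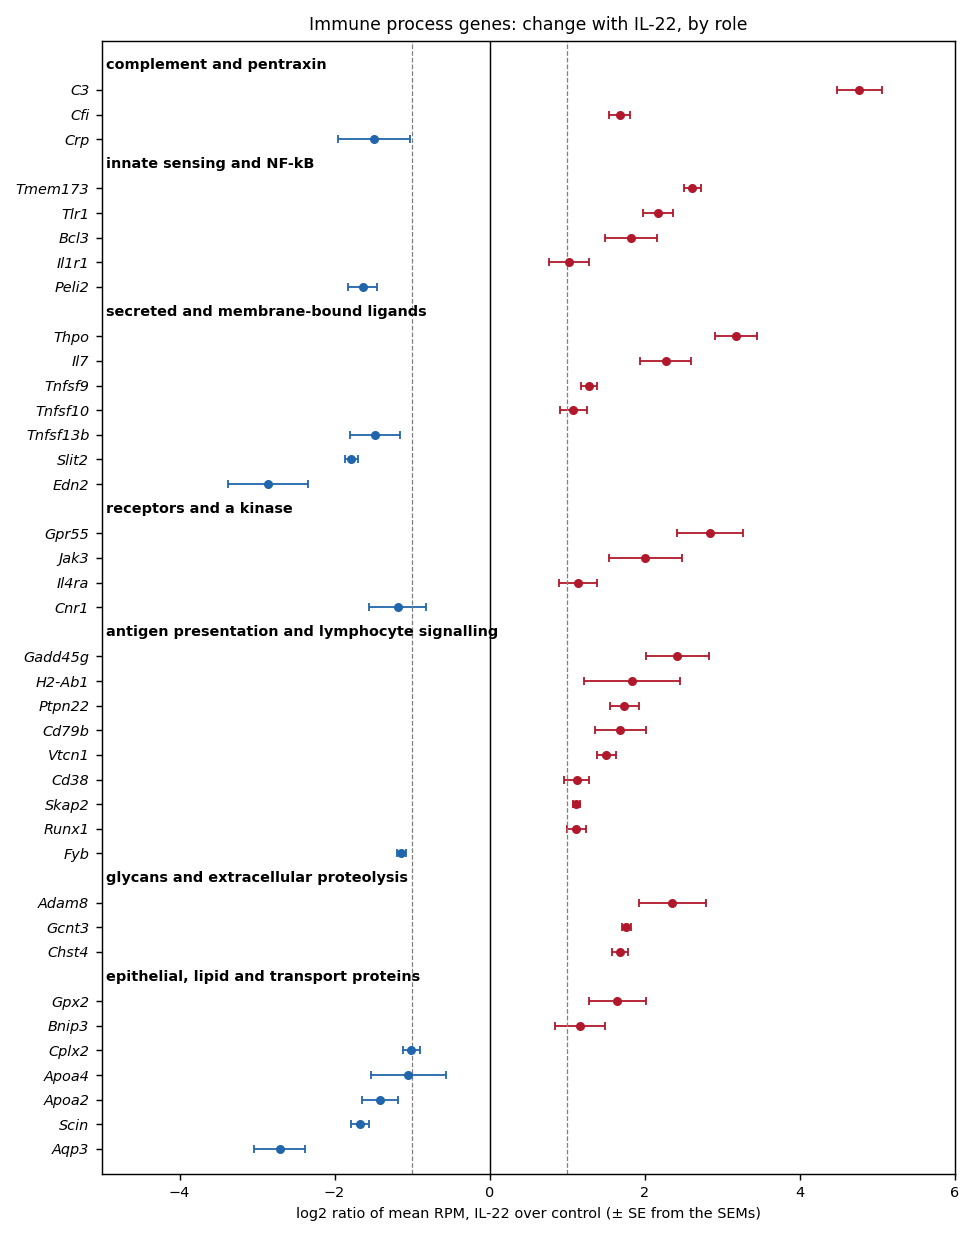
Fold differences of 38 members, grouped by role. The x axis is the log2 ratio of the group means, IL-22 over control, with bars of 1 standard error propagated from the authors' SEMs (2 IL-22 and 4 control libraries); 26 points lie right of 0 and 12 left of it.

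The authors' adjustment covers the listed genes alone. When the p-values of the authors' deposited table were adjusted over 21951 protein-coding genes, with unlisted genes given the largest possible p, 13 members stayed under 0.05, 12 higher and 1 lower. That is 32.5% of the members, beside 21.6% of all listed genes (13.6% higher and 7.97% lower). The 12 were C3, Thpo, Gpr55, Tmem173, Tlr1, Gcnt3, Ptpn22, Chst4, Cfi, Vtcn1, Tnfsf9 and Skap2, and the lower one was Slit2. The authors' comparison was repeated with unequal variances and adjusted over the listed genes. In it 24 of 40 members kept the call (13 higher and 11 lower), beside 490 of 690 listed genes (122 higher and 368 lower). The 16 members that lost it included C3, Tmem173, Gadd45g, Il7, Tlr1, Jak3, Bcl3, Cd79b, Gpx2, Il4ra, Cd38, Runx1, Tnfsf10, Apoa4 and Cnr1. Adjusted p-values given below for a comparison without 1 library are over the listed genes, and a lone IL-22 library was assumed to vary like the controls. Differences of at least 4-fold were found in 9 higher and 3 lower members, beside 13.2% and 13.8% of all listed genes.

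**Figure D2:**
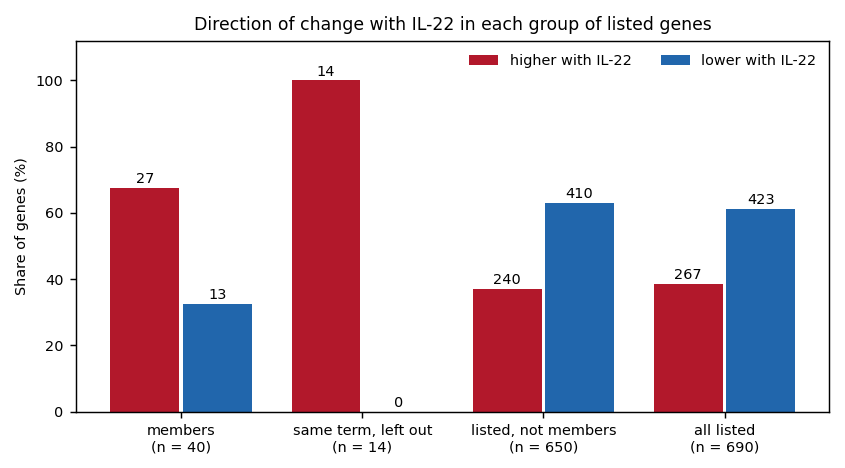
Share of genes (percent, y axis) that were higher (red) or lower (blue) with IL-22 among the 40 members, the 14 genes of the same term that were left out, the 650 listed genes that are no members and all 690 listed genes, with the number of genes above each bar. Higher genes make up 67.5% of the members and 38.7% of all listed genes.

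The promoters were searched for a STAT-type motif, because the IL-22 receptor signals through STAT3. An NF-kB-type motif was searched because the members include genes of NF-kB signalling. RefSeq start sites on GRCm38.p6 gave a window of 250 bases before to 50 bases after the start for 31 of the 40 members. The STAT-type motif TTCNNNGAA, which reads the same on both strands, was found in 3 of 31 member promoters (9.68%), in 9.74% of 534 promoters of listed genes and in 9.55% of 27025 promoters of all genes. The NF-kB-type motif, GGG and TTCC with 3 bases of any kind between them, searched on both strands, was found in 3 of 31 member promoters as well (9.68%), in 8.24% of promoters of listed genes and in 6.31% of all. Member promoters therefore held the STAT-type letters about as often as any promoter. The 3 promoters with the STAT-type motif belong to members that were higher and that passed the wider adjustment. Of all 40 members 27 were higher, and 12 of those passed. The 3 with the NF-kB-type motif belong to Il1r1 and Il4ra, which were higher, and Cplx2, which was lower, and none of them passed. A link between motif and response was not tested. The STAT-type promoters are shown 5′ to 3′ on the strand of the gene with the motif in capitals. Gpr55 lies on the minus strand at chr1:85961006-85961305, Ptpn22 on the plus strand at chr3:103860027-103860326 and Tlr1 on the minus strand at chr5:64932650-64932949.
Gpr55: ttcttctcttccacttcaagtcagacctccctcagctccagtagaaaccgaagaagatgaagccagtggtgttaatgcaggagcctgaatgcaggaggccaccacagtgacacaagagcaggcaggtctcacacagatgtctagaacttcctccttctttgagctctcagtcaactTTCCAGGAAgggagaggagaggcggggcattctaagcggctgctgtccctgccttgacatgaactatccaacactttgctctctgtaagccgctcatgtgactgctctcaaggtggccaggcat
Ptpn22: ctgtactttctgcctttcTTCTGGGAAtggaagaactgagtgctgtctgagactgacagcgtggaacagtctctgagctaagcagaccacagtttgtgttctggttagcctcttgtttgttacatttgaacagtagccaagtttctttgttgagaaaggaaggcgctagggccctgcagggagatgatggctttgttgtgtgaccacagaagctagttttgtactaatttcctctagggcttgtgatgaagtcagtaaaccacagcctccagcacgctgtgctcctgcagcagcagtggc
Tlr1: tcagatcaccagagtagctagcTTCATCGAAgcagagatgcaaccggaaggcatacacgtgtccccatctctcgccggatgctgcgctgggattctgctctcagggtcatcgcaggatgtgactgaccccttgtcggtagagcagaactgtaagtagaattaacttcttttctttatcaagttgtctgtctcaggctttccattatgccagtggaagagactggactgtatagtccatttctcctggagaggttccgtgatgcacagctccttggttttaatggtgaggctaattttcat
The first base of the motif stands 74 bases before the start site in Gpr55, 232 bases before it in Ptpn22 and 228 bases before it in Tlr1. A match of letters is a description of the sequence and not evidence of binding.

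In the complement group, C3 had the largest fold difference of any member. C3 is the central complement protein, whose cleavage marks microbes for uptake. Its recovered reads were 79 and 58 in the IL-22 libraries, against 3, 3, 3 and 1 in the control libraries. In RPM this is 2.43 and 1.94 with IL-22 and 0.0820, 0.0851, 0.109 and 0.0442 in controls, so that controls were at or near the limit of detection and no library of either group overlapped the other. C3 (Entrez 12266, chromosome 17) differed 27.3-fold between the groups in the authors' deposited table, with an adjusted p of 0.0344 over all protein-coding genes. The ratio of depth-scaled read sums was 26.8, with a 95% counting interval of 14.1 to 57.1 (exact conditional binomial) that covers counting error only. With unequal variances the adjusted p of C3 over the listed genes was 0.0890. Cfi encodes complement factor I, the protease that inactivates C3b. It stood at 56.7 and 56.3 RPM in the IL-22 libraries, against 19.0, 16.7, 21.6 and 13.5 RPM in controls, a 3.20-fold difference (adjusted p over all protein-coding genes 0.0292). The activator component and its inactivating protease thus both rose. Of 38 complement genes in a list of the pathway, 3 were listed by the authors, C3, Cfi and C4b. All 3 were higher, beside 38.7% of all listed genes, and the other 35 were not among the listed genes. For this list and those below, the background is 690 listed genes beside 21951 protein-coding genes. Crp, the pentraxin C-reactive protein, moved the other way, with 0.309 ± 0.0930 RPM in IL-22 libraries and 0.868 ± 0.0947 RPM in controls (SEM, n = 2 and 4 wells), 2.81-fold lower. Crp rested on 7 and 12 reads in the IL-22 libraries, and its adjusted p was 0.115 without the deeper of them, 0.0620 without the shallower and 0.0587 without the second-deepest control library.

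Among receptors that sense microbes, Tmem173 and Tlr1 were higher. Tmem173 (Entrez 72512, chromosome 18) encodes STING, the sensor of cyclic dinucleotides. Its values were 16.3 and 14.2 RPM with IL-22, against 2.27, 2.64, 2.48 and 2.60 RPM in controls. The 4 controls lay within 1.16-fold of each other, and the lowest IL-22 library was 5.39-fold above the highest control. The deposited difference was 6.11-fold (log2 difference 2.61 ± 0.11, SE; adjusted p over all protein-coding genes 0.0161). Tlr1 encodes the receptor that pairs with TLR2 to sense triacylated bacterial lipopeptides. It averaged 2.53 ± 0.249 RPM with IL-22 and 0.561 ± 0.0494 RPM in controls (SEM, n = 2 and 4 wells), 4.5-fold higher (adjusted p over all protein-coding genes 0.0480). Only 80.0% of its 31-base words occur in no other gene, so some Tlr1 reads could belong to a close relative. With unequal variances the adjusted p over the listed genes was 0.0660 for Tmem173 and 0.0866 for Tlr1. These 2 were the only ones of 60 sensing and inflammasome genes that the authors listed. That is about the share of 690 listed genes set against 21951 protein-coding genes.

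The NF-kB arm was represented by Bcl3, an IkB-family protein that partners NF-kB p50 and p52 in the nucleus. Bcl3 averaged 15.2 ± 3.30 RPM with IL-22 and 4.30 ± 0.344 RPM in controls, 3.54-fold higher, and its IL-22 libraries differed 1.55-fold from each other. It was 1 of 4 genes listed out of 43 NF-kB and MAPK genes, with the non-members Tnip3, Tifa and Alpk1. All 4 were higher, beside 38.7% of all listed genes. Il1r1, the signalling receptor of interleukin-1, stood at 0.659 ± 0.0434 RPM with IL-22 and 0.325 ± 0.0540 RPM in controls, 2.03-fold higher on 20 and 21 reads in the IL-22 libraries. Its call was lost without either IL-22 library or without any of the 3 deepest controls, where ratios were 1.90 to 2.17. Peli2, a Pellino ubiquitin ligase of Toll-like and interleukin-1 receptor signalling, went the other way, with 0.647 and 0.569 RPM in the IL-22 libraries, against 1.61, 1.56, 2.48 and 1.90 RPM in controls, 3.11-fold lower. Without the deeper or the shallower IL-22 library its adjusted p was 0.0721 or 0.0832, and the value is uncertain because its exons overlap those of Gm6498 on the same strand.

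**Figure D3:**
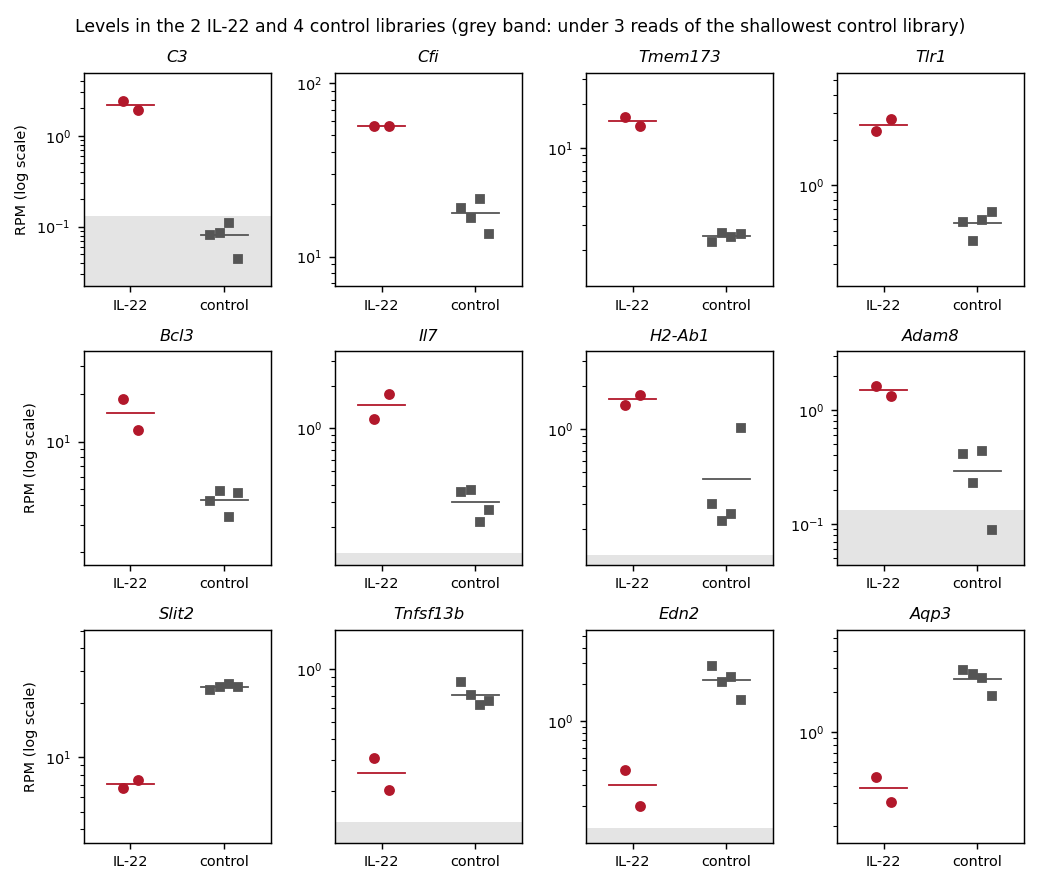
RPM in each recovered library (log axis) for 12 members, with 2 IL-22 libraries (circles) left of 4 control libraries (squares), a line at each group mean and a grey band below the value of 3 reads of the shallowest control library. In each panel both IL-22 libraries lie on the same side of all controls, and all 4 controls of C3 and 1 of Adam8 lie within the band.

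The cytokine and TNF-family ligands split between the directions. Thpo, thrombopoietin, which drives megakaryocyte and stem cell growth, had 2.19 and 2.11 RPM in the IL-22 libraries, against 0.273, 0.255, 0.109 and 0.309 RPM in controls. All controls lay far below the treated libraries, on 3 to 10 reads each. The difference was 9.07-fold (adjusted p over all protein-coding genes 0.00833). Exons of Thpo overlap those of Chrd on the other strand, and reads of such a pair cannot be told apart where counting ignored the strand. Exon overlap on the other strand was found in 11 members. These were Thpo, Il7, Tnfsf9, Gpr55, Bcl3, Adam8, Runx1, Il4ra, Fyb, Bnip3 and Apoa4. Il7, the lymphocyte survival factor that gut epithelium is known to make, had 1.17 and 1.74 RPM with IL-22, against 0.355, 0.369, 0.219 and 0.265 RPM in controls, 4.82-fold higher. Il7 did not pass the wider adjustment (adjusted p 0.183). Tnfsf9, the 4-1BB ligand that costimulates T cells, was 2.43-fold higher at 7.96 ± 0.359 RPM with IL-22 and 3.27 ± 0.184 RPM in controls. Tnfsf10 encodes TRAIL, which can trigger death receptors. Its IL-22 libraries had 64.5 and 79.6 RPM, and controls averaged 34.0 ± 1.96 RPM (SEM, n = 4 wells). The difference was 2.12-fold, and 1.89-fold without the shallower IL-22 library.

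The other ligands were lower. Slit2, the secreted guidance cue for Robo receptors, had 6.71 and 7.46 RPM with IL-22, against 23.4, 24.3, 25.4 and 24.5 RPM in controls. The controls lay within 1.08-fold of each other. Slit2 was 3.44-fold lower (log2 difference -1.78 ± 0.08, SE) and was the only lower member past the adjustment over all protein-coding genes (adjusted p 0.00850). Edn2, endothelin-2, a vasoactive peptide and leukocyte attractant, had 0.400 and 0.201 RPM with IL-22, against 2.82, 2.10, 2.30 and 1.5 RPM in controls, 7.25-fold lower. Its IL-22 libraries held 13 and 6 reads and differed 1.99-fold, and with either alone the adjusted p was 0.0550 or 0.0688. Tnfsf13b, the B-cell survival factor BAFF, was 2.79-fold lower at 0.254 ± 0.0536 RPM with IL-22 and 0.710 ± 0.0494 RPM in controls. In a list of 79 chemokines, cytokines and receptors, 8 were listed by the authors. Of these 8, 7 were higher and 1 was lower, beside 38.7% higher among all listed genes. The members among these 8 were 5 (Il1r1, Il4ra, Il7 and Tnfsf10 higher, Tnfsf13b lower).

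Of 4 members that are receptors or the kinase beneath them 3 were higher (75%), beside 67.5% of all members and 38.7% of all listed genes. Gpr55, a G-protein-coupled receptor for lysophosphatidylinositol, had 33 and 32 reads with IL-22, against 5, 9, 4 and 0 reads in controls. In RPM these were 1.02 and 1.07 with IL-22 and 0.137, 0.255, 0.146 and 0.0442 in controls, the last being the value of 1 read that the deposited means give to an empty library. The deposited difference was 7.17-fold, and the depth-scaled ratio of reads was 7.06 (95% counting interval 4.14 to 12.6). Il4ra, the shared receptor chain of interleukin-4 and interleukin-13, had 27.0 and 19.2 RPM with IL-22, against 11.1, 10.3, 10.8 and 9.67 RPM in controls, 2.20-fold higher. The deeper IL-22 library was the higher one, and without it the difference was 1.83-fold. Jak3, the kinase of the common gamma chain receptors for interleukins such as interleukin-7 and interleukin-4, averaged 4.61 ± 1.30 RPM with IL-22 and 1.15 ± 0.182 RPM in controls, 4.03-fold higher. The Jak3 value is uncertain because its exons overlap those of Insl3 on the same strand, and its IL-22 libraries differed 1.79-fold. Cnr1, the cannabinoid receptor CB1, was 2.27-fold lower at 0.729 ± 0.175 RPM with IL-22 and 1.66 ± 0.132 RPM in controls, and without the deeper IL-22 library its adjusted p was 0.0859.

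Genes of antigen presentation and lymphocyte signalling made the group with the most members, 8 higher and 1 lower. That is 88.9% higher, beside 67.5% of all members and 38.7% of all listed genes, in a group drawn up with results known. Of these 9 members 3 passed the wider adjustment (33.3%, beside 32.5% of all members). In 5 of them the higher group had under 5 RPM (55.6%, beside 52.5% of all members). Skap2 and Fyb encode adaptors known to act downstream of antigen receptors and integrins, and they moved in opposite directions. Skap2 had 41.2 and 39.6 RPM with IL-22, against 19.0, 19.3, 17.1 and 19.0 RPM in controls, 2.17-fold higher (log2 difference 1.12 ± 0.05, SE; adjusted p over all protein-coding genes 0.00933). Fyb averaged 1.62 ± 0.0129 RPM with IL-22 and 3.57 ± 0.151 RPM in controls, 2.20-fold lower, and its exons overlap those of Gm7666 on the same strand, which leaves the value uncertain. Ptpn22, a phosphatase that restrains T-cell receptor signalling, was 3.33-fold higher at 7.5 ± 0.105 RPM with IL-22 and 2.25 ± 0.288 RPM in controls. Vtcn1, the inhibitory B7 family ligand B7-H4, was 2.84-fold higher at 0.900 ± 0.0374 RPM with IL-22 and 0.317 ± 0.0226 RPM in controls. Both passed the wider adjustment (adjusted p 0.0461 for Ptpn22 and 0.0329 for Vtcn1).

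Cd38, an ectoenzyme that consumes NAD, had 277.5 and 341.4 RPM with IL-22 and averaged 142.0 ± 6.71 RPM in controls (SEM, n = 4 wells), 2.18-fold higher and 1.95-fold without the shallower IL-22 library. Runx1, a transcription factor of blood and epithelial stem cells, had 35.0 and 40.9 RPM with IL-22, against 18.7, 17.4, 18.2 and 15.5 RPM in controls, 2.17-fold higher. Gadd45g, a stress-inducible activator of p38 signalling, had 3.11 and 1.81 RPM with IL-22, against 0.547, 0.340, 0.511 and 0.442 RPM in controls, 5.35-fold higher. Neither Runx1 nor Gadd45g passed the wider adjustment (adjusted p 0.0720 and 0.319). Cd79b, a signalling chain of the B-cell receptor, was 3.22-fold higher at 0.763 ± 0.161 RPM with IL-22 and 0.237 ± 0.0187 RPM in controls, on 30 and 18 reads in the IL-22 libraries. None of 4 markers of B and plasma cells, Cd79a included, was among the listed genes, and the part of such cells in the Cd79b value was not tested.

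H2-Ab1, the beta chain of an MHC class II molecule, depended on 1 control library more than most. Its values were 1.48 and 1.74 RPM with IL-22, against 0.301, 0.227, 0.255 and 1.02 RPM in controls, and the shallowest control accounted for 23 of the 49 control reads. The difference was 3.58-fold in the authors' deposited table (adjusted p over all protein-coding genes 0.580), and the 2 nearest libraries were 1.46-fold apart. Without the shallowest control the difference was 6.17-fold with an adjusted p of 0.00423. Leaving out the deeper IL-22 library gave an adjusted p of 0.0616, and the value was 0.0959 without the shallower one and 0.0519 without the deepest control. In a list of 41 antigen presentation genes, H2-Ab1 (higher) and the non-member Cd83 (lower) were the only ones listed. The other class II genes, Cd74 and Ciita were not among the listed genes.

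Enzymes of mucin-type glycans were higher, with little spread. Gcnt3, which makes branched core structures of mucin O-glycans, had 276.1 and 272.3 RPM with IL-22 and averaged 80.6 ± 2.85 RPM in controls (SEM, n = 4 wells). It was 3.40-fold higher (log2 difference 1.77 ± 0.05, SE; adjusted p over all protein-coding genes 0.00274) and was the 1 member that passed a Bonferroni correction over all protein-coding genes. Chst4, a sulfotransferase known for building L-selectin ligands, had 71.8 and 68.5 RPM with IL-22, against 24.4, 19.0, 24.3 and 19.7 RPM in controls, 3.21-fold higher (adjusted p over all protein-coding genes 0.015). The libraries of each group lay close together in both genes.

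The protease gene of this group was higher with more spread between controls. Adam8, a membrane metalloprotease of leukocytes and epithelia, had 1.63 and 1.34 RPM with IL-22, against 0.410, 0.227, 0.438 and 0.0883 RPM in controls, 5.11-fold higher (adjusted p over all protein-coding genes 0.112).

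**Figure D4:**
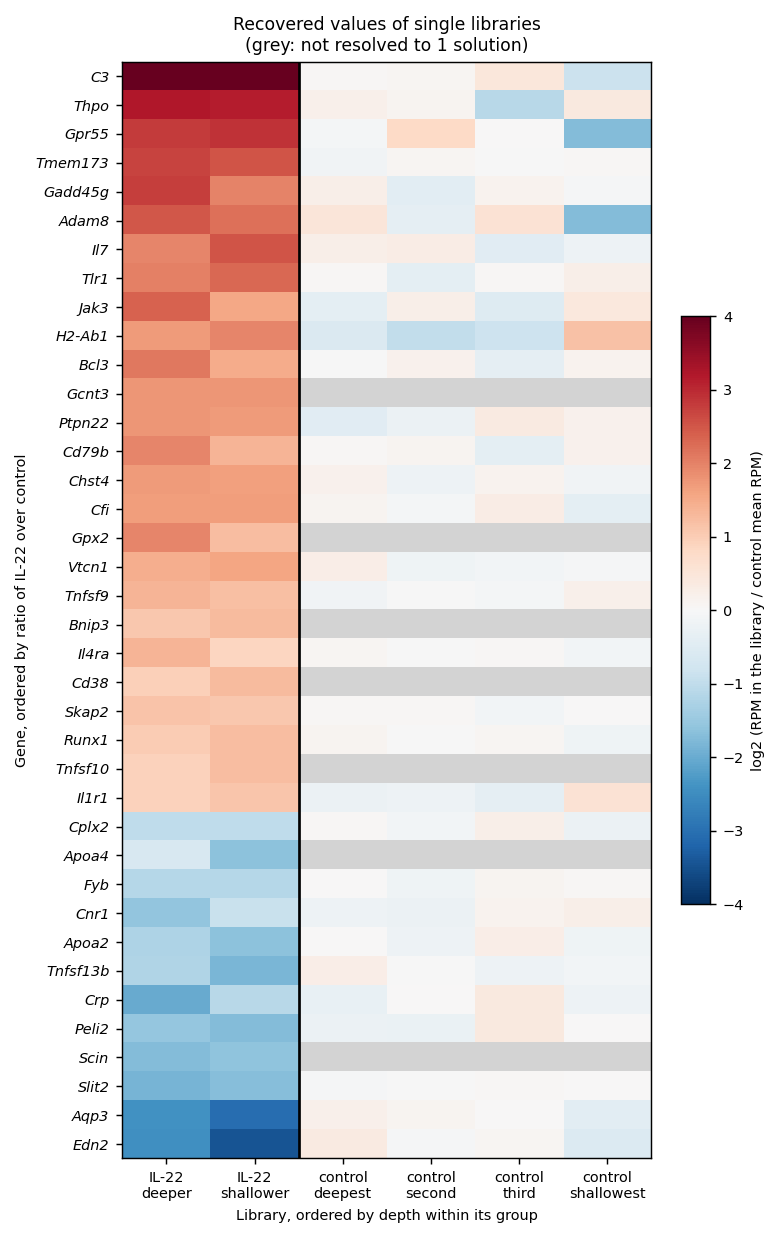
Level of 38 members in each library over the mean of its controls (log2 colour scale, red higher and blue lower), with genes ordered by their ratio of IL-22 over control and IL-22 libraries left of controls. Grey marks the 7 members whose single control libraries were not resolved, and H2-Ab1 stands above the other controls in the shallowest one (1.02 RPM).

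Of 8 members with epithelial, lipid or transport functions 6 were lower and 25% were higher, beside 61.3% lower and 38.7% higher among all listed genes. Aqp3, a water and glycerol channel of the basolateral membrane, had 0.462 and 0.301 RPM with IL-22, against 2.90, 2.69, 2.52 and 1.85 RPM in controls, 6.53-fold lower (adjusted p over all protein-coding genes 0.190). The groups were well apart for Aqp3, with the nearest libraries 4.01-fold apart. Scin, scinderin, an actin-severing protein, had 62.6 and 67.3 RPM with IL-22 and averaged 207.0 ± 15.7 RPM in controls, 3.19-fold lower (adjusted p over all protein-coding genes 0.200).

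Both apolipoproteins were lower. Apoa4, made by enterocytes for chylomicrons, had 470.1 and 236.3 RPM with IL-22 and averaged 732.7 ± 39.4 RPM in controls, 2.07-fold lower. Its IL-22 libraries differed 1.99-fold, the ratio without the shallower one was 0.642, and only 35.5% of its 31-base words occur in no other gene, with antisense genes overlapping its exons. Apoa2 was 2.67-fold lower at 0.351 ± 0.0496 RPM with IL-22 and 0.937 ± 0.0711 RPM in controls, with an adjusted p of 0.0529 without the shallower IL-22 library. Cplx2, a complexin that regulates vesicle fusion, was 2.01-fold lower, the smallest difference among the lower members, at 7.26 ± 0.0350 RPM with IL-22 and 14.6 ± 1.07 RPM in controls. It fell short of the thresholds without either IL-22 library (adjusted p 0.0607 and 0.0626), and without the deepest or third-deepest control its ratio was 0.503 or 0.530.

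The higher genes of this group were Gpx2, the glutathione peroxidase of the gut, and Bnip3, a mitochondrial protein that promotes mitophagy. Gpx2 had 1441 and 876.5 RPM with IL-22 and averaged 370.5 ± 28.8 RPM in controls, 3.13-fold higher. Its IL-22 libraries differed 1.64-fold. Bnip3 had 187.1 and 212.8 RPM with IL-22 and averaged 89.1 ± 19.4 RPM in controls, 2.24-fold higher (adjusted p over all protein-coding genes 0.694). With the deeper IL-22 library left out its adjusted p was 0.0697, with the shallower left out it was 0.111, and only 43.0% of its 31-base words occur in no other gene.

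A few narrower ontology terms, picked from many in the authors' deposited table, are given with the split of their members. The terms are nested, so a gene counts in several. Over all members 67.5% were higher, beside 38.7% of all listed genes. The listed genes with a term include its members, so they are no separate background. Of members with "leukocyte differentiation", 7 were higher and none was lower (8 and 0 of all listed genes with the term), of those with "lymphocyte activation" 10 were higher and 1 was lower (13 and 1 of all listed), and of those with "T cell activation" 8 were higher and 1 was lower (11 and 1 of all listed). For "myeloid leukocyte activation" 2 members were higher and 5 were lower, whereas 4 of all listed genes with the term were higher and 5 were lower. "Innate immune response" held 5 higher and 3 lower members (8 and 3 of all listed), and "inflammatory response" 7 higher and 3 lower (18 and 7 of all listed). These are counts of annotations in an epithelial culture and were given no test. Of 65 interferon and antiviral genes the authors listed 5 (Irf1, Oasl2, Zbp1 and Apobec3 higher, Irf5 lower), and of 43 mucosal antimicrobial genes 9 (8 higher, 1 lower). Among all listed genes 38.7% were higher. None of these 14 is a member.

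The fold between the 2 treated wells can be compared only within a direction. The authors' test used untransformed values, so a lower gene with small IL-22 values could pass with a larger fold between wells. The IL-22 libraries differed more than 1.5-fold in 7 of 13 lower members (53.8%), beside 24.0% of all listed lower genes, and in 6 of 27 higher members (22.2%), beside 12.1% of all listed higher genes. Depth moved with this, since 21 of 40 members (52.5%) had under 5 RPM even in the group where they were higher, beside 40.6% of all listed genes, and its part in the spread was not tested.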

How the data were processed

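RNA-seq of 6 libraries (2 IL-22 wells, 4 control wells) was available as the authors' deposited table of 690 genes, which holds no column for a single well. BWA 0.5.9 and Picard 1.58 are the tools in the submitters' processing notes. Genome build, annotation, counting program and strand setting: not given in the sources used here. Per the labels, cDNA went through 15 PCR cycles before single-read sequencing. The authors' deposited table gives RPM means and SEMs (unit inferred from the values), a p-value and an adjusted p-value, the ratio of the IL-22 over the control mean, and the mean count of raw reads. Per the file headers no transformation was applied and the correction was Benjamini and Hochberg. The p-values were recomputed as a pooled-variance comparison with 4 degrees of freedom (largest difference 1.07e-06), and the adjusted p-values as an adjustment over the 690 listed genes. An exact permutation test of 2 against 4 wells cannot give a p below 0.0667.

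Library depths (22648812 to 36577356 reads) and whole reads per library were solved from means, SEMs and mean reads, checked on simulated data. IL-22 reads had 1 solution in 685 genes and control reads in 587. Standard errors of log2 differences were propagated from the SEMs. Read ratios have exact 95% intervals of counting error, which treat reads as independent. PCR reads are not independent molecules, so these intervals may be too narrow. P-values were also adjusted over 21951 protein-coding genes of GENCODE M21, with unlisted genes at the largest p, so these are upper bounds. The share of 31-base words in no other gene came from GENCODE M21 transcripts, and 40 of 40 members matched RefSeq by Entrez identifier. Python 3.11.15, NumPy 2.4.6, pandas 2.3.3 and SciPy 1.17.1 were used.

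Members were all listed genes with the term, less the genes and families left out by name. Of the 40 members, 38 are named and the others, which enter the counts only, are not reported here. Named members have values per library for the 6 largest folds in each direction and for members with at least 20 RPM in the higher group. The members, lists, role groups and alternatives were chosen with earlier results of these data known. Genes that the authors did not list were not analysed here.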

Additional observations from a re-analysis of the deposited data

Results flagged for a closer look

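In 3 members 1 control library stood apart from the other 3 by more than Dixon's 95% critical gap for 4 values, as a share of their range. For H2-Ab1 the shallowest control was the highest, at 1.02 RPM beside 0.227 to 0.301 RPM, with a gap of 0.906 of the range. For Il1r1 the same library was the highest, with a gap of 0.877. For Skap2 the third-deepest control was the lowest, at 17.1 RPM beside 19.0 to 19.3 RPM, with a gap of 0.871. That is 3 of 33 members tested (9.09%), beside 36 of 587 listed genes (6.13%), and chance alone flags about 1 gene in 20.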

How the results depend on the processing

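No member changed direction under any alternative tried, which carries no information. Most alternatives kept the order of the group means, and where control libraries were resolved the groups did not overlap, so leaving out 1 library could not reverse a member. The 27 higher and 13 lower members became 12 and 1 when adjusted over all protein-coding genes, 1 and 0 with a Bonferroni correction over them, 9 and 3 at 4-fold and 8 and 3 with 5 RPM added to both means. With unequal variances 13 members were higher, with 1 RPM added 5 were lower, of members whose higher group averaged 100 reads or more 16 and 5 could be called, and with 2-fold required between the nearest libraries 17 of 22 and 7 of 11 evaluable members were called. Leaving out 1 IL-22 library gave 22 of 27 higher members in both cases and 6 to 7 of 13 lower ones. Leaving out 1 control library, which could be evaluated in 22 higher and 11 lower members, gave 19 to 22 higher and 10 to 11 lower ones. Leaving out 1 IL-22 library leaves a single treated library, with the spread taken from the controls alone. Calls lost in that way cannot be set against those lost by leaving out a control. Removing the shallowest control lost none of 33 evaluable members.

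Of all listed genes, 94 higher and 55 lower passed the adjustment over all protein-coding genes, and 14 and 2 the Bonferroni correction. At the 4-fold threshold 91 and 95 were called, with 1 RPM added 168 and 263, and with 5 RPM added 90 and 134. The 2-fold gap between nearest libraries was met by 144 of 244 and 192 of 342 evaluable genes. With unequal variances 122 were higher and 368 were lower. Leaving out 1 library gave 221 to 236 higher and 280 to 331 lower among the 587 to 685 genes that could be evaluated. Members had a larger share of higher genes than all listed genes under every alternative. Examples are 54.2% beside 24.9% with unequal variances and 92.3% beside 63.1% with the wider adjustment. The alternatives reuse the same genes and libraries, so they are not independent of each other. With the Bonferroni correction the share rests on 1 member beside 16 listed genes, and with 5 RPM added on 11 beside 224. The Bonferroni, 5 RPM and nearest-library alternatives were chosen after seeing the data. The planned count models were not run, because only genes selected on this comparison have recovered reads. No paired analysis was possible because recovered libraries carry no mouse or well number. Depth limits C3 in controls, at 1 to 3 reads a library.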
